A study of Mus musculus with 6 samples.

Results

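Rare chemosensory and ion-transporting cells of the newborn mouse nose were followed through 9 of their genes, in pups that lack the ATF/CREB transcription factor Atf5 and in pups that carry it. Of these 9 genes, 6 belong to the microvillous cells that carry the channel Trpm5 (Trpm5, Pou2f3, Chat, Gnat3, Plcb2 and Tas1r3) and 3 to ionocyte-type cells (Ascl3, Foxi1 and Cftr). They were chosen by name, and each had 1 probe set with a single gene symbol among the 19937 genes measured. Septa and turbinates were dissected on postnatal day 0 from Atf5-/- pups and from Atf5+/+ pups, all C57BL6 and all from crosses of heterozygous parents. Each genotype had 3 samples, each a pool of 3 pups and each hybridised to 1 whole-transcript array. The part of Atf5 that is removed in the knockout is not given in the sources used here. The tissue also holds neurons, supporting cells, glands, bone and muscle, so a gene of a rare cell type contributes little of the RNA.

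Trpm5-positive microvillous cells of the nose are relatives of tuft cells and of taste receptor cells. They are known for a signalling cascade in which a receptor activates a G protein, phospholipase C releases calcium through an inositol trisphosphate receptor, and calcium opens the cation channel Trpm5. They make acetylcholine, and their formation depends on the POU factor Pou2f3. Ionocytes are rare epithelial cells rich in the chloride channel Cftr and in vacuolar proton pumps, and their formation depends on the forkhead factor Foxi1; Ascl3 marks them in airway epithelium.

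Atf5 was read as a check of the genotype labels. Its log2 level was 9.43, 9.44 and 9.50 in the knockout arrays, against 10.54, 10.96 and 10.63 in the wild-type arrays. This was a log2 change of -1.25 (SE 0.10, adjusted p = 0.000499 by limma), or 2.38-fold lower. Other genes fell further, among them Gnal (5.13-fold) and Omp (4.69-fold), so a fall of this size is a limited check. Here and below, levels are log2 expression levels as deposited, and changes are knockout minus wild type on that scale. The SE is the moderated one of limma, and adjusted p comes from the same fit with Benjamini-Hochberg adjustment over all 19937 genes, with a threshold of 0.05. By this test 645 genes fell in the knockout (3.24% of all genes) and 100 rose (0.502%), 3.74% together. The array medians lay between 8.67 and 8.72. Arrays of the same genotype correlated at 0.992 to 0.994 and arrays of different genotype at 0.988 to 0.992 over all rows.

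None of the 9 genes passed the test in either direction (0 of 9, beside 3.74% of all genes), and none had an unadjusted p under 0.05, as 3209 of 19937 genes (16.1%) did. Their changes ran from -0.03 for Chat to 0.14 for Foxi1, with a median of 0.02, beside a median of 0.01 over all genes. The 95% intervals of all 9 changes lay within 0.5 of 0 on the log2 scale, as did those of 93.0% of all genes. The lowest bound was -0.37 and the highest 0.39, both for Ascl3. When the fit also took the replicate number as a block, Ascl3 had an interval of -0.18 to 0.20 (SE 0.08), and the highest bound of the 9 genes was 0.31, for Foxi1. A p that misses the threshold does not show that the levels were equal. In whole tissue, fewer cells of a type and less RNA per cell cannot be told apart.

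**Figure D1:**
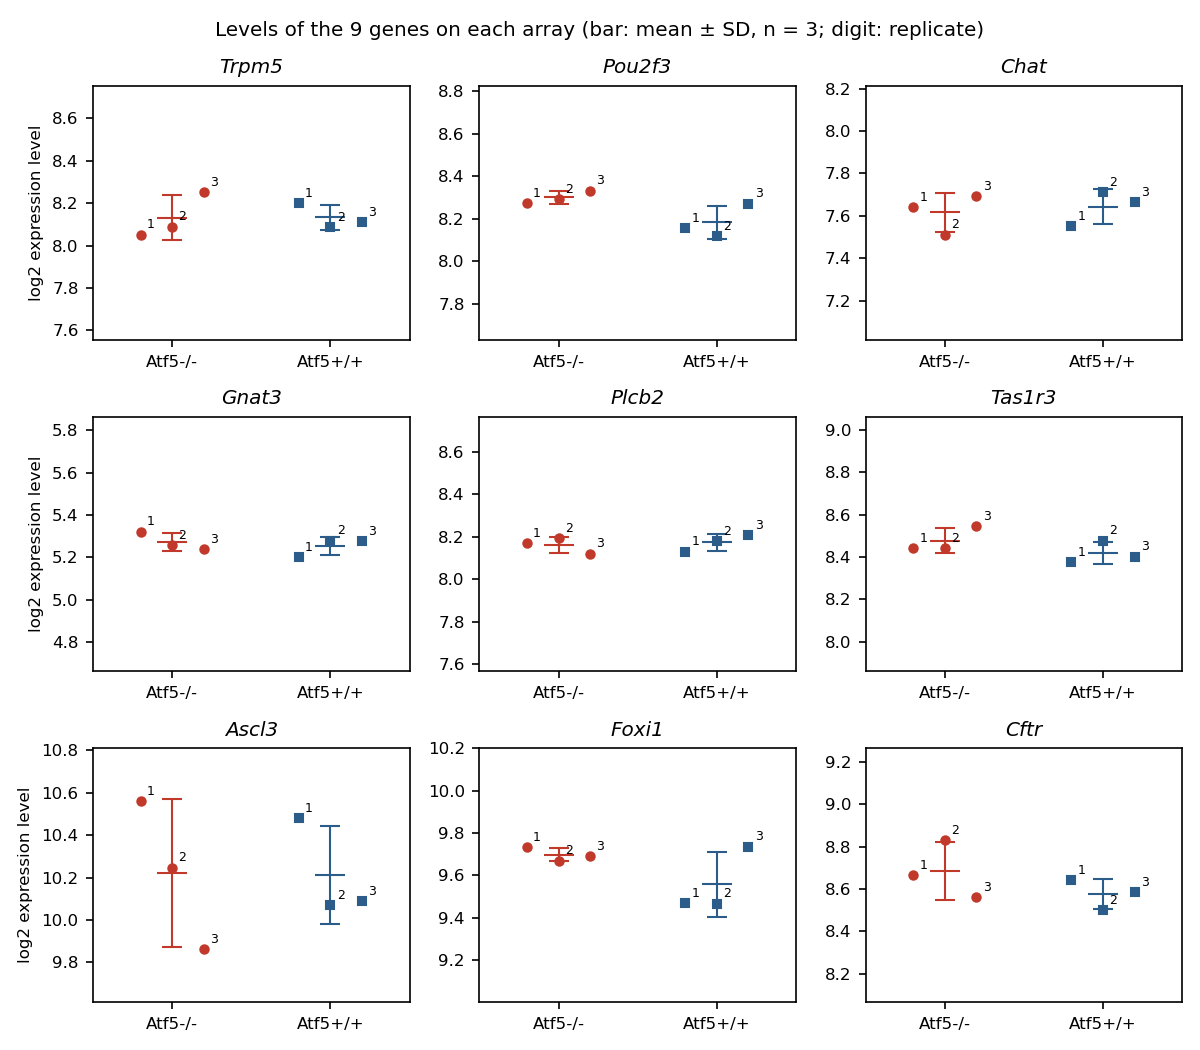
Log2 expression level of each of the 9 genes on the 3 Atf5-/- arrays (circles, left) and the 3 Atf5+/+ arrays (squares, right), with the mean and SD of each genotype; every panel spans the same height. The knockout and wild-type points overlap for every gene but Pou2f3, and Ascl3 has the widest spread within each genotype.

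Pou2f3, the POU homeodomain factor required for tuft-type chemosensory cells, had levels of 8.27, 8.29 and 8.33 in the knockout arrays, against 8.16, 8.12 and 8.27 in the wild-type arrays. All knockout values lay above all wild-type values, although the lowest of the knockout and the highest of the wild type were nearly equal. Pou2f3 was the only 1 of the 9 genes whose ranges did not overlap. Ranges did not overlap for 21.1% of all genes, 10.8% with the knockout higher and 10.3% with it lower. Its change was 0.12 (SE 0.06, 95% interval -0.03 to 0.26, adjusted p = 0.418 by limma).

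Tas1r3, the shared subunit of the sweet and umami taste receptors, had levels of 8.44, 8.44 and 8.55 in the knockout arrays, against 8.38, 8.48 and 8.40 in the wild-type arrays. The ranges overlapped, with wild-type replicate 2 above 2 of the knockout arrays. The change was 0.06 (SE 0.06, 95% interval -0.08 to 0.20).

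Gnat3 encodes gustducin, the G protein alpha subunit of taste and tuft cells. Its levels were 5.32, 5.26 and 5.24 in the knockout arrays, against 5.20, 5.28 and 5.28 in the wild-type arrays. The 6 values lay within a narrow band and overlapped, with a change of 0.02 (SE 0.06, 95% interval -0.11 to 0.16). Only 0.983% of genes had a dimmer probe set, and the files carry no detection call, so it is not known whether this signal stood above background.

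Plcb2, the phospholipase C that follows the G protein in this cascade, had levels of 8.17, 8.20 and 8.12 in the knockout arrays, against 8.13, 8.18 and 8.21 in the wild-type arrays. The groups overlapped fully, and the change was -0.01 (SE 0.06, 95% interval -0.14 to 0.12), the smallest SE of the 9 genes. Trpm5, the calcium-gated cation channel at the end of the cascade, had levels of 8.05, 8.09 and 8.25 in the knockout arrays, against 8.20, 8.09 and 8.11 in the wild-type arrays. Its means were 8.13 ± 0.11 in the knockout and 8.13 ± 0.06 in the wild type (SD, n = 3 each), a fold of 0.999 (95% interval 0.892 to 1.12).

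Chat, the enzyme that makes acetylcholine, had levels of 7.64, 7.51 and 7.69 in the knockout arrays, against 7.55, 7.71 and 7.67 in the wild-type arrays. The lowest knockout and the lowest wild-type array differed little, and the groups overlapped. The change was -0.03 (SE 0.07, 95% interval -0.19 to 0.14).

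The genes that work beside these 6 showed the same lack of calls with 2 exceptions. Of 14 measured signalling partners of taste and tuft cells, 2 fell, none rose and 12 did not pass, with a median change of -0.05. Of all genes 3.24% fell and 3.74% were called in either direction. At such shares a list this short would hold few calls or none. Gng13, the G protein gamma subunit that pairs with gustducin in taste cells and with the olfactory G protein in neurons, had levels of 9.23, 9.49 and 9.46 in the knockout arrays, against 11.17, 10.93 and 11.00 in the wild-type arrays. It fell by 1.63 (SE 0.09, adjusted p = 6.23e-05 by limma), or 3.10-fold. Gnb1, a G protein beta subunit found in many cell types, fell by 0.30 (SE 0.06, adjusted p = 0.0227 by limma). Gnb1 lost its call when any single array but knockout replicate 3 was left out (adjusted p from 0.0547 to 0.109 by limma), which left 1 of the 14 partners called. Itpr3, the inositol trisphosphate receptor of taste and microvillous cells, was at 0.08 (SE 0.06, adjusted p = 0.603) and did not pass.

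Gng13 is also a gene of mature olfactory sensory neurons, and 8 of 8 markers of those neurons fell, beside 3.24% of all genes. The mean over these markers was 9.01, 9.14 and 8.97 in the knockout arrays, against 11.16, 10.78 and 10.96 in the wild-type arrays. The part of these neurons in the fall of Gng13 was not tested.

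**Figure D2:**
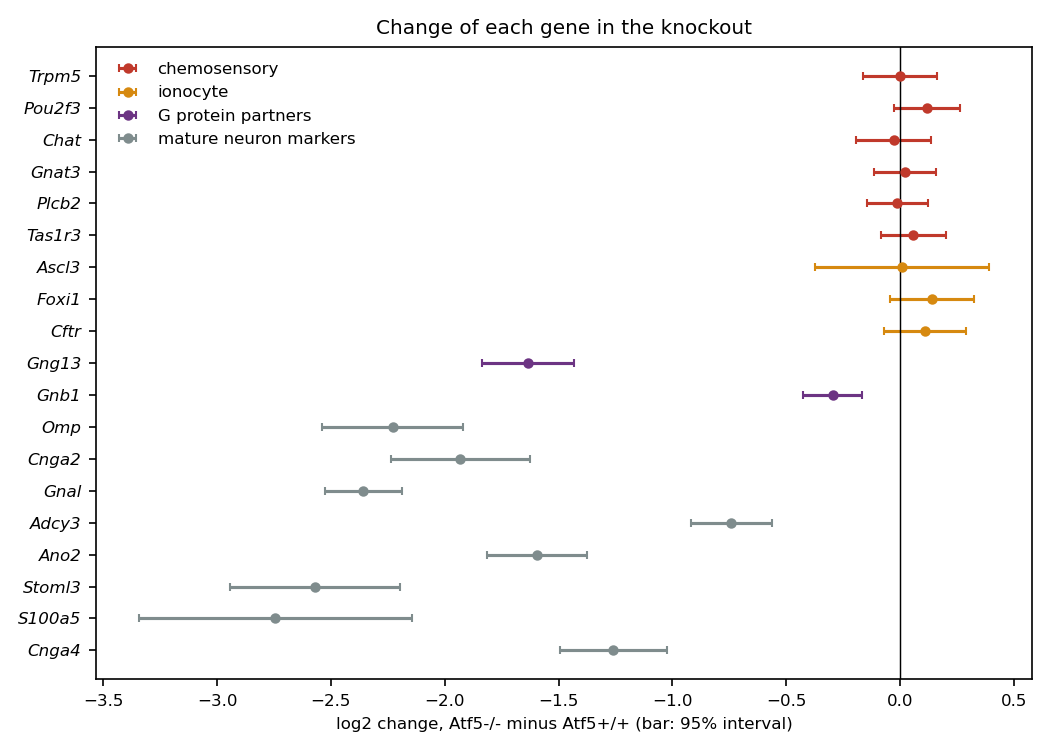
Log2 change (Atf5-/- minus Atf5+/+) with its 95% interval for the 6 chemosensory genes, the 3 ionocyte genes, the G protein subunits Gng13 and Gnb1, and 8 markers of mature olfactory sensory neurons. The intervals of the 9 genes all include 0 and stay within 0.5 of it, while Gng13 lies at -1.63 and the neuron markers lie between -2.74 and -0.74.

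Bitter taste receptors, which signal through the same cascade, were read by dim probe sets, the brightest of which exceeded 28.3% of genes. None of 34 passed, beside 3.74% of all genes, with a median change of -0.01 and changes from -0.25 to 0.12. The gene with the lowest p was Tas2r137, with levels of 7.51, 7.36 and 7.46 in the knockout arrays, against 7.71, 7.66 and 7.71 in the wild-type arrays. Its change of -0.25 (SE 0.06, adjusted p = 0.0713 by limma) did not pass, but it did once the replicate number was a block (adjusted p = 0.0432 by limma). No other alternative gave a call, and the adjusted p reached 0.237 by limma. Tas2r102 was at -0.05 and Tas2r103 at -0.01.

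None of 8 genes of acetylcholine handling passed, beside 3.74% of all genes, with changes from -0.15 to 0.18. The vesicular acetylcholine transporter Slc18a3 had a change of 0.04 (SE 0.07) and the choline transporter Slc5a7 one of 0.03 (SE 0.08). The lowest p was that of Ache, the enzyme that breaks acetylcholine down, at 0.18 (SE 0.11, adjusted p = 0.476 by limma). The wide interval of Ache (-0.07 to 0.44) came with a spread of 9.66 to 10.05 among knockout arrays.

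Of 22 measured genes of tuft cell identity and output, none passed, beside 3.74% of all genes, and the median change was -0.02. An unadjusted p under 0.05 was reached by 4 of the 22, or 18.2%, beside 16.1% of all genes. Sox9, a transcription factor of many epithelial progenitors, was at 0.07 (SE 0.09) and the zinc finger factor Gfi1b at -0.03 (SE 0.08). The lowest p was that of Vil1, an actin bundler of microvilli. Vil1 had levels of 7.33, 7.11 and 7.39 in the knockout arrays, against 7.50, 7.43 and 7.58 in the wild-type arrays, a change of -0.23 (SE 0.08, adjusted p = 0.218 by limma). Among 4 genes of other microvillous cells none passed. The neuropeptide gene Npy was at -0.04 (SE 0.11). Nt5e, an enzyme that makes adenosine at the cell surface, had the lowest p of these 4, at 0.20 (SE 0.06, adjusted p = 0.138 by limma).

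**Figure D3:**
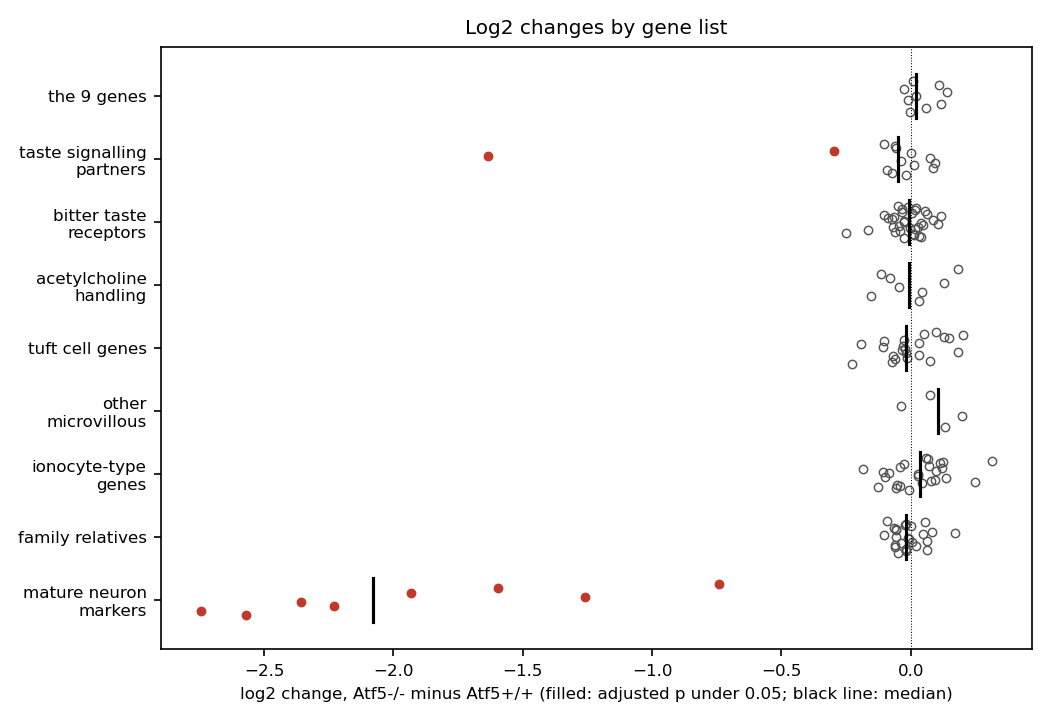
Log2 change (Atf5-/- minus Atf5+/+) of every measured gene in 9 lists; filled points passed the test, open points did not, and the black line is the list's median. Outside the mature neuron markers, Gng13 at -1.63 and Gnb1 at -0.30 are the filled points.

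The ionocyte genes likewise gave no call. Foxi1, the forkhead factor required for ionocytes, had levels of 9.73, 9.67 and 9.69 in the knockout arrays, against 9.47, 9.47 and 9.73 in the wild-type arrays. The knockout arrays were close together, and wild-type replicate 3 lay slightly above all of them, so the ranges overlapped. Its change of 0.14 (SE 0.08, 95% interval -0.04 to 0.32, adjusted p = 0.454 by limma) was the largest of the 9 genes and ran from 0.09 to 0.23 with any 1 array left out. Ascl3, a bHLH factor of ionocyte-type cells, had levels of 10.56, 10.25 and 9.86 in the knockout arrays, against 10.48, 10.07 and 10.09 in the wild-type arrays. Replicate 1 was the highest array in each genotype, and knockout replicate 3 was the lowest of all. The means were 10.22 ± 0.35 in the knockout and 10.21 ± 0.23 in the wild type (SD, n = 3 each), a change of 0.01 (SE 0.17). Without knockout replicate 1 it was -0.16 and without knockout replicate 3 it was 0.19.

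Cftr, the chloride channel of ionocytes, had levels of 8.67, 8.83 and 8.56 in the knockout arrays, against 8.64, 8.50 and 8.58 in the wild-type arrays. Knockout replicate 2 was the highest and wild-type replicate 2 the lowest array, with overlap between the rest. The change was 0.11 (SE 0.08, 95% interval -0.07 to 0.29, adjusted p = 0.571 by limma). Cftr is also made by other epithelia, among them enamel-forming ameloblasts. Of 6 ameloblast markers 2 fell, beside 3.24% of all genes. The mean of the 6 ran from 7.69 to 8.32 in the knockout arrays and from 8.54 to 9.90 in the wild-type arrays. The part of this tissue in the value of Cftr was not tested.

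Of 26 other measured genes of ionocytes and related forkhead-dependent cells, none passed, beside 3.74% of all genes. Their median change was 0.04, with changes from -0.18 to 0.32. The related forkhead genes Foxi2 (-0.08, SE 0.07) and Foxi3 (0.03, SE 0.07) did not pass. Ptger3, a prostaglandin E2 receptor, had the lowest p of the list. Its levels were 8.94, 9.06 and 8.97 in the knockout arrays, against 8.69, 8.79 and 8.74 in the wild-type arrays, without overlap. The change of 0.25 (SE 0.06, adjusted p = 0.0718 by limma) did not pass, but it did with the replicate number as a block (adjusted p = 0.0409 by limma). No other alternative gave a call, and the adjusted p reached 0.263 by limma.

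The largest change of the list was that of Atp6v0d2, a subunit of the vacuolar proton pump that is also abundant in osteoclasts; it was singled out after its values were seen. Its levels were 9.71, 10.07 and 10.25 in the knockout arrays, against 9.76, 9.63 and 9.69 in the wild-type arrays. The change was 0.32 (SE 0.12, adjusted p = 0.243 by limma), and without knockout replicate 1 it was 0.47 and passed (adjusted p = 0.033 by limma). No other alternative gave a call. Over the alternatives the change went down to 0.17 and the adjusted p up to 0.507 by limma. Of 6 osteoclast markers none passed and 6 had a change above 0, and their mean was 10.01, 10.09 and 10.34 in the knockout arrays, against 9.91, 9.86 and 10.07 in the wild-type arrays. Their part in the value of Atp6v0d2 was not tested.

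The levels of the other ionocyte-type genes were set beside those of Ascl3, which had the widest spread among arrays of the 9 genes. Over the 6 arrays, 6 of the 26 listed genes had a Pearson correlation with Ascl3 over 0.8 (23.1%), beside 4.91% of all genes, and none of the other 8 genes followed here did. In other lists 1 of 5 sustentacular markers (20%), 2 of 14 signalling partners (14.3%), 1 of 8 acetylcholine genes (12.5%), 1 of 9 nasal gland markers (11.1%) and none of 22 tuft cell genes did, and the difference between these shares was not tested. The 6 ionocyte-type genes, named after their values were seen, were the proton pump subunit Atp6v0a4, the anion exchanger pendrin (Slc26a4), the carbonic anhydrase Car2, Hepacam2, the adaptor Stap1 and the nucleotide sugar receptor P2ry14. Atp6v0a4 had levels between 9.84 and 10.21 in the knockout arrays, against 10.17, 9.84 and 9.86 in the wild-type arrays, and replicate 1 was again the highest in each genotype. Its correlation with Ascl3 was the highest of the list, with a Pearson r of 0.957 (exact permutation p = 0.00417, or 0.0944 adjusted over 34 relations) and a Spearman rho of 0.943 (exact permutation p = 0.0167, or 0.162 adjusted). Atp6v1e2, another pump subunit, ran the opposite way with a Pearson r of -0.949 (exact permutation p = 0.00556, or 0.0944 adjusted). Other listed genes also had a negative r, among them Foxi3 (-0.65), Foxi2 (-0.48) and Atp6v0d2 (-0.47). The median r over all 26 was 0.34. Foxi1 had an r of -0.10 and Cftr one of 0.47. No relation passed after adjustment. The permutations took the 6 arrays as exchangeable, whatever their genotype or replicate number. These p therefore do not allow for a link between arrays of the same replicate number. Without the 2 arrays farthest from the median of Ascl3 the Pearson r of Atp6v0a4 was 0.775 over the remaining 4, and 3 arrays per genotype are too few for a value within each genotype.

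**Figure D4:**
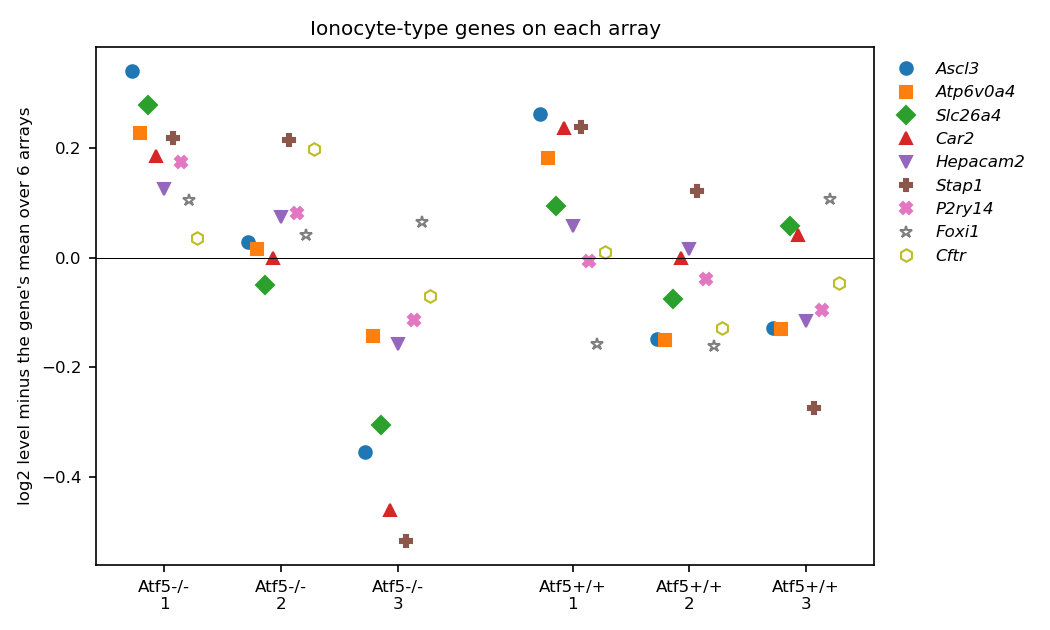
Log2 level minus the gene's own mean over 6 arrays, for Ascl3, the 6 ionocyte genes that correlated with it over 0.8 (filled) and Foxi1 and Cftr (open), on each Atf5-/- array and each Atf5+/+ array. All filled points lie above 0 on knockout replicate 1 and below 0 on knockout replicate 3, where Foxi1 lies above 0. The 6 genes were picked by their correlation with Ascl3 on these same arrays. Their likeness to it here therefore follows largely from that choice.

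The same arrays differed in other tissues. The median correlation with Ascl3 was 0.57 over 5 markers of sustentacular cells, the supporting cells of the olfactory epithelium, and -0.66 over 7 markers of skeletal muscle. It was 0.43 over 9 nasal gland markers and 0.34 over the 26 ionocyte-type genes, so by the median the ionocyte list was not the closest to Ascl3. The mean of the sustentacular markers was 11.79, 11.66 and 11.38 in the knockout arrays, against 12.07, 11.60 and 11.77 in the wild-type arrays. The mean of the muscle markers was 9.77, 9.95 and 10.12 in the knockout arrays, against 8.78, 9.89 and 9.81 in the wild-type arrays. No gene passed among the markers of sustentacular cells, ciliated cells, nasal glands, mast cells, macrophages, erythroid cells and muscle, beside 3.74% of all genes. Changes lay above 0 for 6 of 6 macrophage and 7 of 7 muscle markers, and below 0 for 5 of 5 sustentacular markers. The other lists held both signs. An unadjusted p under 0.05 was reached by 3 of 6 macrophage, 1 of 7 muscle and 1 of 5 sustentacular markers, beside 16.1% of all genes. The part of these tissues in the levels of Ascl3 and the ionocyte-type genes was not tested.

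Relatives of the 9 genes within their families were also without calls. Of 25 measured members of the Ascl, Pou2f, Gnat, Plcb, Trpm and Abcc families, none passed, beside 3.74% of all genes. Their median change was -0.02, with changes from -0.10 to 0.17. Ascl2 was at 0.05 and Ascl4 at -0.10. The lowest p was that of Abcc9, a sulfonylurea receptor subunit, at 0.17 (SE 0.09, adjusted p = 0.37 by limma).

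The size of change that these arrays could call differs between the genes. With its own SE, a gene needed a change of at least 0.25 (Plcb2) to 0.73 (Ascl3) in either direction to reach the p at which calls were made. With the replicate block the need of Ascl3 was 0.34, again the highest of the 9 genes, and the lowest was 0.24, for Pou2f3. Among the genes in the dimmest 5% of probe sets, where Gnat3 lies, 9 of 997 (0.903%) were called and the largest drop was 0.85. Among those between the 20th and 30th percentile, where Chat and Trpm5 lie, 114 of 1993 (5.72%) were called, and in the brightest 10% it was 52 of 1994 (2.61%). The share called did not follow brightness in order. The neuron channel subunit Cnga4, singled out after its values were seen, also lies between the 20th and 30th percentile. It fell by 1.26 (SE 0.10, adjusted p = 0.000499 by limma), from a mean of 8.60 in the wild type to 7.34 in the knockout. Its fall does not show how well the probe sets of Trpm5 and Chat would register a change.

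The RefSeq promoter windows of GRCm38.p6, each 300 bases across a gene's start, held 8 of the 9 genes. They were searched on both strands for 5 motifs of the factor families met here: the octamer ATGCAAAT of POU factors, the amino acid response element TGATGNAAT and the cyclic AMP element TGACGTCA of ATF factors, the forkhead motif TGTTTAC and the E-box CAGCTG of bHLH factors such as Ascl3. The E-box was found in 2 of the 8 windows, those of Chat and Tas1r3, and in 16.3% of all 32851 windows. The octamer (1.74% of all windows), the amino acid response element (0.965%), the cyclic AMP element (1.79%) and the forkhead motif (3.65%) were found in none of the 8. The windows with a match are shown in the direction of the gene, with the E-box in capitals. A match is a description of these letters, not of a bound site.
Chat, chr14:32465860-32466159, minus strand: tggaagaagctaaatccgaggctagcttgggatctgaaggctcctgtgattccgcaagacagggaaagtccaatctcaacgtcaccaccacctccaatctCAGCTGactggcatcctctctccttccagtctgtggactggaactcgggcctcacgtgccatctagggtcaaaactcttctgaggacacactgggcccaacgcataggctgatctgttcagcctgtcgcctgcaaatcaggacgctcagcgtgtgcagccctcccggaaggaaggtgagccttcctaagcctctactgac
Tas1r3, chr4:155863304-155863603, minus strand: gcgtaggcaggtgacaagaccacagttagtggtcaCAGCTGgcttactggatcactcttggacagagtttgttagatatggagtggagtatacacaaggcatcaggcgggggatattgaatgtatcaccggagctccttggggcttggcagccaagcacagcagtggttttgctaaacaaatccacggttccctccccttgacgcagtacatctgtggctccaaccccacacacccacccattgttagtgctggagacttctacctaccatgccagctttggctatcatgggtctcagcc
The E-box began 150 bases before the start of Chat and 215 bases before that of Tas1r3. Neither gene passed the test, with changes of -0.03 and 0.06 as given above.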

How the data were processed

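Per the labels' protocols, the Ambion WT Expression Kit turned total RNA of the 6 pooled samples into cDNA, which was biotin-labelled in 1 colour for 1 Affymetrix array each. RMA, affy and limma are named, without versions, per the submitters' processing notes. The deposited values, from 4.50 to 14.67, were taken to be log2 expression levels; the base of the logarithm is not given in the sources used here. RMA, as generally defined, quantile-normalizes the arrays, which hides any shift common to most transcripts, and dim probe sets can understate a change. Of 34760 rows, 21640 had 1 gene symbol in the platform annotation, 1321 several and 11799 none. The highest-mean probe set was taken for each of 19937 genes. Dim genes were kept.

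The genotypes were compared in R 4.3.3 with limma 3.58.1 (lmFit, eBayes, no covariate, 2-sided) and Benjamini-Hochberg adjustment over all genes, threshold 0.05. The procedure was tested on simulated data. These values were drawn independently for each array, without any link between arrays of the same replicate number. The simulation therefore says nothing about the effect of such a link. Genes and lists were chosen with earlier results of these data known. Named genes were Atf5, the 9 genes, and from each list beside them the first 2 measured, up to 4 that passed, or the gene with the lowest p; others were singled out after their values were seen. Deviations from the genotype mean correlated at 0.295, 0.122 and 0.234 between arrays with the same replicate number, each over 0.1, so by the rule set for it the numbers pair the samples. This pairing comes from the data, since no label explains the numbers. For that reason the block was kept as an alternative. Unless the block is named, SEs, intervals and adjusted p given here take no account of the pairing. With the block 1310 genes were called, against 745 without it. The labels call the samples biological replicates, pooled from pups of different litters. With 3 arrays a genotype, precision is limited. Alternatives were the replicate block, quantile normalization, median centring, filters on dim genes, other probe set choices, a trended and robust prior, array weights and leaving out each array.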

Additional observations from a re-analysis of the deposited data

How the results depend on the processing

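None of the 9 genes was called under any of 15 alternatives, in 125 results with adjusted p from 0.16 upward by limma and changes from -0.16 to 0.23. With 1 probe set each, these genes kept the same levels under the other probe set choices. The filters left the change of each gene they kept as it was. For the 9 genes these alternatives could therefore hardly give another outcome. The count of all genes called moved more. It was 1310 with the replicate block (421 higher), 1128 with array weights (291 higher), 432 with a filter at the 30th percentile of brightness (358 lower) and 286 with a filter at the median (60 higher, 226 lower). Without single arrays it ran from 410 to 649 (27 to 127 higher, 383 to 584 lower); it was 410 without wild-type replicate 1 and 455 without knockout replicate 1. The block gave 1 call among the ionocyte-type genes (Ptger3) and 1 among the bitter receptors (Tas2r137), and changed no other call among the named genes. Without single arrays the ionocyte-type genes had 0 to 1 calls (Atp6v0d2 without knockout replicate 1), and the signalling partners 1 to 2. Quantile normalization turned the uncalled changes of Trpm5 (0.0206), Plcb2 (0.0115) and Ascl3 (-0.0215), median centring that of Trpm5 (0.00378), and array weights those of Slc26a4 (0.10) and Stap1 (0.10). With single arrays left out, uncalled changes of both signs ran from -0.0624 to 0.0381 for Trpm5, -0.074 to 0.0244 for Chat, -0.00375 to 0.0377 for Gnat3, -0.0328 to 0.0098 for Plcb2, -0.16 to 0.19 for Ascl3 and -0.00577 to 0.10 for Slc18a3. They also ran from -0.00881 to 0.0989 for Slc5a7, -0.0185 to 0.15 for Sox9, -0.0937 to 0.0182 for Gfi1b, -0.14 to 0.0942 for Npy, -0.0378 to 0.0779 for Foxi3 and -0.16 to 0.00249 for Ascl4. The remaining ranges were -0.0286 to 0.015 for Tas2r103, -0.0302 to 0.17 for Atp6v0a4, -0.20 to 0.0884 for Slc26a4, -0.32 to 0.000144 for Car2, -0.0274 to 0.11 for Hepacam2 and -0.21 to 0.19 for Stap1. The cause of these shifts was not tested, other than that the filters left out dim genes, among them some of the 9. No array carries a detection call, so values near background cannot be told from no signal.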

Other observations

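The genes whose levels over the 6 arrays were most like those of 4 of the 9 genes came from a search of 8125 or 8126 genes with an SD of at least 0.1, so high correlations arise from the search itself and no test was made. For Trpm5 they were Vasn (Pearson r of 0.977), H60b (0.974) and Podnl1 (0.951). For Pou2f3 they were the transcription factor Elf4 (0.989), the receptor Lrp4 (0.989) and Fkbp9 (0.986), none of which passed the test; Elf4 was at 0.24 (adjusted p = 0.17 by limma). For Ascl3 they were Ssu72 (0.988), Ecm2 (0.985) and Sptlc2 (0.983). For Cftr they were the proteasome subunit Psmb2 (0.996), Chchd5 (0.982) and Lgals3bp (0.977). No gene of the tuft, cholinergic or ionocyte lists was among these 12, which says little, since the lists are short beside the number of genes searched.

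None of the 22 measured tuft cell genes correlated with Trpm5 over 0.8, beside 1.19% of all genes. With Pou2f3, 3 of the 22 did (13.6%), beside 4.21% of all genes. In other lists 2 of 6 osteoclast markers (33.3%), 1 of 6 macrophage markers (16.7%) and 3 of 34 bitter receptors (8.82%) did. None of 8 acetylcholine genes and none of 8 mature neuron markers did. With Cftr, 4 of the 26 ionocyte-type genes did (15.4%), beside 3.64% of all genes. So did 1 of 6 macrophage markers (16.7%), and no gene of the other lists. The difference between these shares was not tested.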
